A study of Mus musculus with 2 samples.

Results

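The 7 genes described here carry out antigen presentation by major histocompatibility complex (MHC) class II in the mouse. They were taken by symbol from the 32286 features of the deposited matrices: H2-Aa, H2-Ab1 and H2-Eb1, the chains of the surface molecule, Cd74, the invariant chain, H2-DMa and H2-DMb1, the peptide loading factor, and Ciita, the transactivator. All 7 were found once each, and their levels were read in every marker-defined class of bone marrow cells. They were left out of the genes used to cluster the cells and out of the marker lists used to name the clusters.

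The study profiled primary hematopoietic cells of mouse bone marrow by droplet single-cell RNA sequencing from the 3′ end. The control genotype was Mx1Cre+/-;Rosa26+/+, and the MYC genotype was Mx1Cre+/-;Rosa26LSL-MYC/LSL-MYC. Both therefore carry Mx1-Cre, a recombinase under an interferon-inducible promoter, and only the MYC genotype carries the MYC cassette behind a loxP-stop-loxP element on both Rosa26 alleles. Each group is 1 library, and how many animals it holds, their age and the induction schedule are not given in the sources used here. There is no replicate check: no p-value is given, and the intervals, all at 95%, speak of counting error alone. The transgene feature MYC had 0 unique molecular identifiers (UMIs, the counted molecules) among 14903 kept control cells, which allows a level of up to 0.0247 CPM (3 counts), and 289 UMIs in 267 of 12540 kept cells of the MYC library.

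MHC class II molecules show peptides from endocytosed proteins to CD4+ T cells. The alpha and beta chains assemble in the endoplasmic reticulum with the invariant chain, which blocks the groove and directs the complex to endosomes; after proteases trim it, H2-DM exchanges the remaining fragment for antigen peptide. Ciita does not bind DNA itself but is recruited to a promoter module (the X and Y boxes) by the RFX, CREB and NF-Y factors, and its expression is largely restricted to dendritic cells, B cells and activated macrophages. H2-O, made of H2-Oa and H2-Ob, restrains H2-DM and is best known from B cells.

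In the GENCODE vM21 annotation (GRCm38), all 7 are protein-coding genes. H2-DMa (34119541 to 34139101, plus strand), H2-DMb1 (34153072 to 34160230, plus), H2-Ab1 (34257689 to 34269419, plus), H2-Aa (34282744 to 34287823, minus) and H2-Eb1 (34305867 to 34316674, plus) lie together on chromosome 17. Ciita lies on chromosome 16 (10480059 to 10528418, plus), and Cd74 lies outside both regions. H2-DMa overlaps Brd2 on the other strand, Ciita overlaps Dexi, and H2-Eb1 overlaps the antisense transcript Gm20513. On the same strand, H2-DMa overlaps the transcript CR974462.3 and Cd74 the microRNA gene Mir5107. Whether counting used the strand is not given in the sources used here. Reads of the opposite-strand pairs may therefore have been told apart or not, and the strand cannot separate the same-strand pairs. H2-DMb1 has a neighbouring copy of closely similar sequence, H2-DMb2, so the split of reads between them is uncertain.

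Promoter windows (250 bases before to 50 after the start, RefSeq, GRCm38.p6) were held for 4 of the 7 genes. The following stretches are shown because they carry the letters of the module through which Ciita acts, and because H2-DMb1 and its copy H2-DMb2 are set against each other further on. They run 5′ to 3′ on the gene's strand, and capitals mark TGACGTCA or TGATGCT, and GATTGG. They lie at chr17:34287867-34287897 (H2-Aa, minus strand), chr17:34305784-34305813 (H2-Eb1, plus), chr17:34153105-34153134 (H2-DMb1, plus) and chr17:34145134-34145163 (H2-DMb2, plus).
H2-Aa: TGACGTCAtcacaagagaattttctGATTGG
H2-Eb1: TGATGCTggactccttTGATGCTGATTGGc
H2-DMb1: TGATGCTaggctgattcactcagtGATTGG
H2-DMb2: TGATGCTaggctaagtcacttagtGATTGG
The first capital run and GATTGG start 25 bases apart in H2-Aa, 23 in H2-Eb1 and 24 in both H2-DMb genes. The H2-DMb1 and H2-DMb2 stretches have the same letter at 27 of 30 positions. Over all 32851 windows and both strands, 1.79% hold TGACGTCA, 4.27% TGATGCT and 16.1% GATTGG, and 0.113% hold either of the first 2 with GATTGG starting at most 30 bases downstream. Of the 2 H2-DMa windows, 1 holds a GATTGG, and neither holds the pair of motifs, which says only that these letters are not in these windows.

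After filtering, the median depth was 5343 UMIs per cell in the control library and 6016 in the MYC library, over 121642346 and 101793556 UMIs. The cells formed 40 clusters, of which 7 stayed unnamed. The unnamed clusters held 2683 control cells (18.0%) and 3163 MYC cells (25.2%), with 2.95% and 5.76% of the UMIs. Most of these cells lay in cluster 7 (2277 and 256 cells) and cluster 14 (180 and 2347). Their median depths were 0.141 and 0.143, and 0.119 and 0.132, of the library median. Unnamed cells count among the kept cells in every share and enter the weighted levels below as a class. The libraries shared 97 barcodes, 79 of them among kept cells. Levels are given in CPM, the UMIs of a gene for every 1000000 UMIs of a class. They are counted from 3′ ends and are not divided by length, so they are compared between classes and libraries, and between genes only as a ratio that is followed across classes.

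With the classes as named here, class II levels were highest in conventional dendritic-like and mature B-like cells in both libraries. In the control library the 7 genes together reached 15082 CPM in conventional dendritic-like cells (interval 14911 to 15255, 184 cells), 11433 in mature B-like cells (580 cells), 10052 in macrophage-like cells (60 cells), 5909 in plasmacytoid dendritic-like cells (218 cells), 4920 in nonclassical monocyte-like cells (188 cells) and 2769 in plasma-like cells (250 cells). No neighbours in this order had overlapping intervals. In the MYC library mature B-like cells (13834, 143 cells) stood above conventional dendritic-like cells (13387, 129 cells), and their intervals overlapped. Plasma-like cells (3269, 92 cells) and macrophage-like cells (3077, 226 cells) followed with overlapping intervals, and then nonclassical monocyte-like cells (1075, 66 cells) and monocyte-like cells (812, 1344 cells). Plasmacytoid dendritic-like cells of the MYC library, at 5332, numbered only 43.

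**Figure D1:**
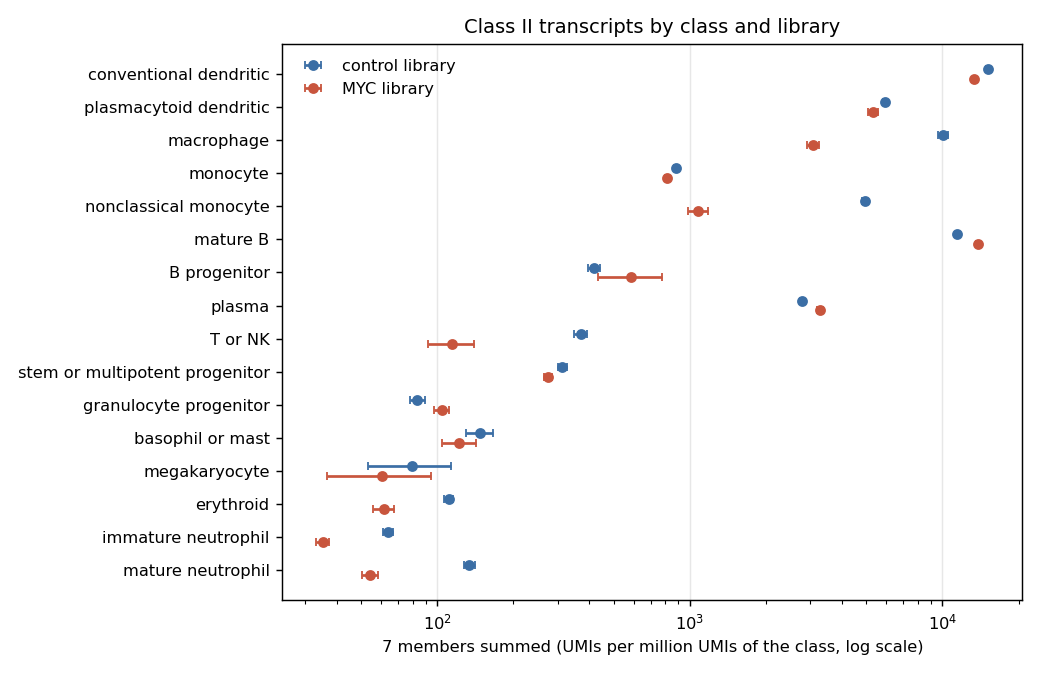
Summed level of the 7 genes in CPM (log axis) for 16 named classes in the control and MYC libraries; bars are 95% exact Poisson intervals for counting error. Conventional dendritic-like and mature B-like cells lie above 10000 in both libraries, and mature neutrophil-like cells at 134 and 54.1.

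Mature neutrophil-like cells should lack the surface molecule and serve as the background class. They held 134 CPM in sum in the control library and 54.1 in the MYC library. With every cell thinned to 2000 UMIs, 19.6% of mature neutrophil-like cells in the control library (321 shallower cells left out) and 10.6% in the MYC library (225 left out) had a class II UMI, against 33.2% and 23.1% before thinning, at median depths of 3624 and 5113 UMIs. The thinned share was 81.0% and 85.0% in conventional dendritic-like cells (98.4% and 96.9% unthinned, median depths 10004 and 11786 UMIs, 5 and 2 cells left out) and 99.3% and 100% in mature B-like cells (99.7% and 100% unthinned, 4460 and 4779 UMIs, 30 and 23 cells left out). Immature neutrophil-like cells of both libraries, and granulocyte progenitor-like, megakaryocyte-like and erythroid-like cells of the control library, had a summed level below that of mature neutrophil-like cells, so their sums are read as background. The loading factor was an exception in granulocyte progenitor-like cells of the control library, where H2-DMa was 4.25-fold (3.22 to 5.68) and H2-DMb1 4.12-fold (2.73 to 6.39) above mature neutrophil-like cells. H2-DMa in control erythroid-like cells was 1.75-fold above (1.32 to 2.35), and H2-DMb1 in immature neutrophil-like cells of the MYC library 1.79-fold (1.22 to 2.70).

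The surface chains followed one another closely. Across the 30 combinations of class and library with at least 50 cells, the log2 level of H2-Aa correlated with the mean of the other members at r = 0.983, H2-Ab1 at 0.981 and H2-Eb1 at 0.971. Cd74 followed at 0.912, Ciita at 0.906, H2-DMa at 0.861 and H2-DMb1 at 0.851. The points share libraries and depth, so these are descriptions. H2-Aa, the alpha chain of the I-A molecule, was highest in conventional dendritic-like cells, at 3157 CPM in the control library and 2596 in the MYC library, where the interval overlapped that of mature B-like cells at 2432. H2-Ab1, its beta partner, was at 2421 and 2463 there and at 1436 and 1933 in mature B-like cells. H2-Eb1, the beta chain of the I-E molecule, was at 2052 and 1848 in conventional dendritic-like cells and at 1193 and 1853 in mature B-like cells.

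Cd74, the invariant chain, reached 6704 and 5501 CPM in conventional dendritic-like cells and 6066 and 6997 in mature B-like cells of the control and MYC libraries. In plasma-like cells, which secrete antibody, it was still at 2313 and 3048. The surface chains there were far lower relative to Cd74. Plasma-like cells had 10.4 Cd74 UMIs per H2-Ab1 UMI in the control library (interval 9.82 to 11.1) and 27.6 in the MYC library (24.0 to 32.0). In mature B-like cells the ratio was 4.22 and 3.62, in conventional dendritic-like cells 2.77 and 2.23, and in mature neutrophil-like cells 3.51 and 3.99. After thinning, 95.5% and 97.6% of plasma-like cells had a Cd74 UMI, against 12.1% and 5.5% of mature neutrophil-like cells. Ciita had 16 UMIs in 250 plasma-like cells of the control library and none in the MYC library, where 0 of 92 cells with a UMI allow a share of up to 3.26% (3 counts). Prdm1, the plasma cell repressor of Ciita, was at 103 and 73.0 CPM in plasma-like cells and at 2.9 and 1.4 in mature B-like cells.

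H2-DMa and H2-DMb1, the peptide exchange factor, were spread over more classes than the chains they serve. In monocyte-like cells H2-DMa was at 145 and 129 CPM and H2-DMb1 at 49.96 and 63.1, or 26.4-fold and 21.1-fold, and 19.7-fold and 25.5-fold, above the mature neutrophil-like cells of their library. Stem or multipotent progenitor-like cells had 86.7 and 107 for H2-DMa, 15.8-fold (interval 12.2 to 20.6) and 17.4-fold (14.0 to 22.0) above mature neutrophil-like cells, whereas their Cd74 was 1.49-fold and 2.09-fold above. H2-DMa was detected in 79.8% and 85.3% of these deep cells, and in 16.9% and 19.3% after thinning, against 1.1% and 1.4% of thinned mature neutrophil-like cells. There were 2.38 (2.09 to 2.73) and 2.82 (2.52 to 3.15) H2-DMa UMIs per H2-Ab1 UMI in stem or multipotent progenitor-like cells and 1.53 and 1.36 in monocyte-like cells. The same ratio was 0.146 and 0.210 in conventional dendritic-like cells and 0.159 and 0.190 in mature B-like cells.

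The balance of the 2 copies of the H2-DM beta chain differed between mature B-like cells and the phagocyte classes read here. The split of reads between the copies is uncertain, as given above. Mature B-like cells had 4.10 H2-DMb2 UMIs for each H2-DMb1 UMI in the control library (interval 3.50 to 4.82) and 5.16 in the MYC library (3.63 to 7.51). In conventional dendritic-like cells the ratio was 0.106 and 0.0711, in plasmacytoid dendritic-like cells 0.149 and 0.0984, in monocyte-like cells 0.119 and 0.0369, and in macrophage-like cells 0.027 and 0.0667 (from 1 and 3 H2-DMb2 UMIs, intervals 0.000666 to 0.160 and 0.0133 to 0.208). The intervals of mature B-like cells and of these phagocyte classes do not overlap in either library. H2-DMb2 was at 255 and 278 CPM in mature B-like cells, where H2-DMb1 was at 62.2 and 53.9. The promoter stretches of the copies, printed above, share both motifs; the H2-DMb1 stretch lies before the RefSeq start but within an exon of the GENCODE gene, and the H2-DMb2 stretch lies within the GENCODE gene, outside its exons. Immature neutrophil-like cells had a ratio of 1.77 in the control library (1.35 to 2.35) and 0.504 in the MYC library (0.368 to 0.684). Their summed class II level was under that of the background class, though H2-DMb1 was 1.79-fold above it in the MYC library. H2-Oa and H2-Ob, the inhibitor of H2-DM, were at 139 and 267 in mature B-like cells of the control library and at 187 and 223 in the MYC library, against 40.8 and 29.1, and 30.4 and 17.9, in conventional dendritic-like cells.

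**Figure D2:**
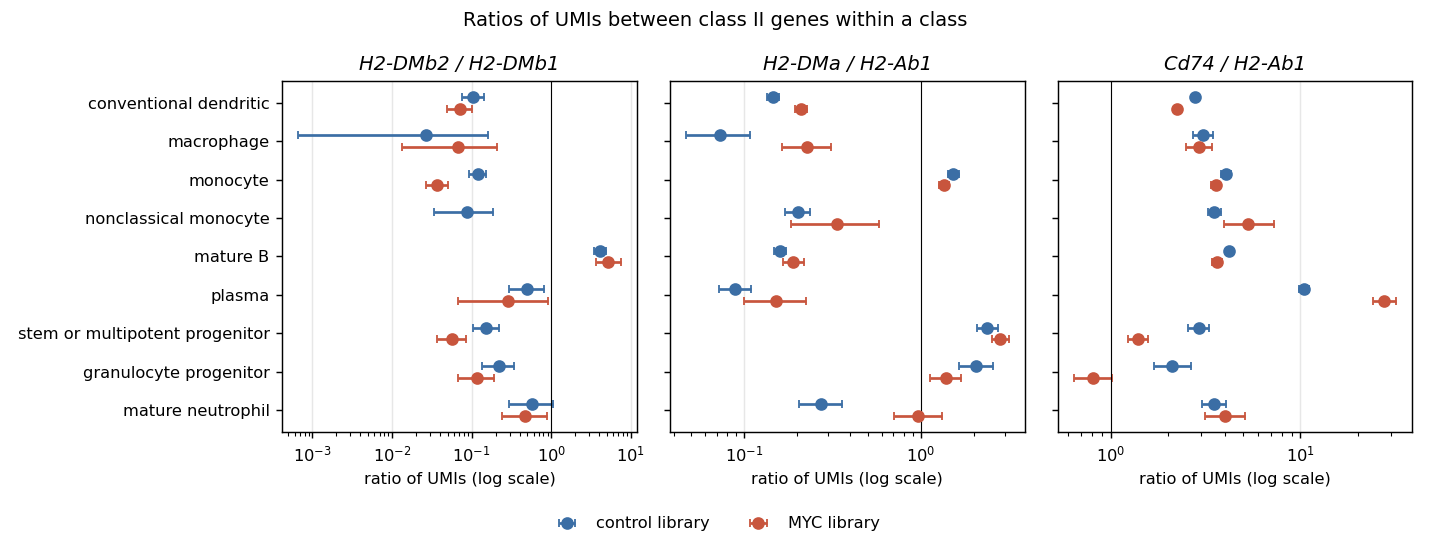
Ratios of UMIs between pairs of class II genes within a class (log axes), control and MYC libraries, with 95% exact intervals; a class with no UMI of the upper gene has no point. Among the classes drawn, the H2-DMb2 to H2-DMb1 ratio is above 1 in mature B-like cells alone. Among the same classes, the H2-DMa to H2-Ab1 ratio is highest in stem or multipotent progenitor-like cells and the Cd74 to H2-Ab1 ratio in plasma-like cells.

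Ciita, the transactivator, was highest in mature B-like cells (263 and 198 CPM) and next in conventional dendritic-like cells (193 and 136). Macrophage-like cells had 92.1 in the control library and 17.1 in the MYC library, and monocyte-like cells 11.3 and 11.8. Mature B-like cells had 0.183 Ciita UMIs per H2-Ab1 UMI in the control library (0.170 to 0.198) and conventional dendritic-like cells 0.0797 (0.0716 to 0.0885). In the MYC library the ratios were 0.103 (0.0857 to 0.122) and 0.0553 (0.0479 to 0.0637).

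Over all kept cells the summed level was 1050.1 CPM in the control library and 637 in the MYC library, which is a log2 ratio of -0.72 (interval -0.73 to -0.71). A gene counts as called where it is at least 2-fold apart with an interval that leaves out equality and has at least 50 UMIs over both libraries. Over all kept cells 9.45% of 14164 genes were called lower in the MYC library and 2.82% higher, and the median log2 ratio of all genes was -0.21. Of the members, Ciita alone was called: it was at 14.7 CPM in the control library and 6.60 in the MYC library, which is a log2 ratio of -1.16 (-1.29 to -1.03). H2-Aa was at 178 and 94.1 (-0.92), Cd74 at 551 and 295 (-0.90), H2-Ab1 at 140 and 89.0 (-0.65) and H2-Eb1 at 99.0 and 65.6 (-0.59). The loading factor lay on the other side: H2-DMa was at 49.2 and 58.0 (0.23, interval 0.18 to 0.29) and H2-DMb1 at 19.2 and 28.5 (0.57, 0.50 to 0.65). These directions held under each alternative cell filter, doublet treatment and scaling; the choice of clusters does not enter the sum over all kept cells. The median of the members was -0.65.

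The classes that held these transcripts differed between the libraries. In the control library mature B-like cells held 27.8% of the summed UMIs, conventional dendritic-like cells 23.1%, plasma-like cells 10.9% and monocyte-like cells 8.94%. In the MYC library conventional dendritic-like cells held 31.2%, monocyte-like cells 23.1%, mature B-like cells 15.04% and plasma-like cells 9.05%. The B lineage as a whole went from 39.9% of the class II UMIs to 24.2%, and the phagocyte classes from 46.6% to 60.2%. For Ciita the share held by mature B-like cells was 45.7% in the control library and 20.8% in the MYC library. H2-DMa differed from the chains in both libraries, with 31.5% and 40.5% of its UMIs in monocyte-like cells and 12.7% and 20.8% in stem or multipotent progenitor-like cells.

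**Figure D3:**
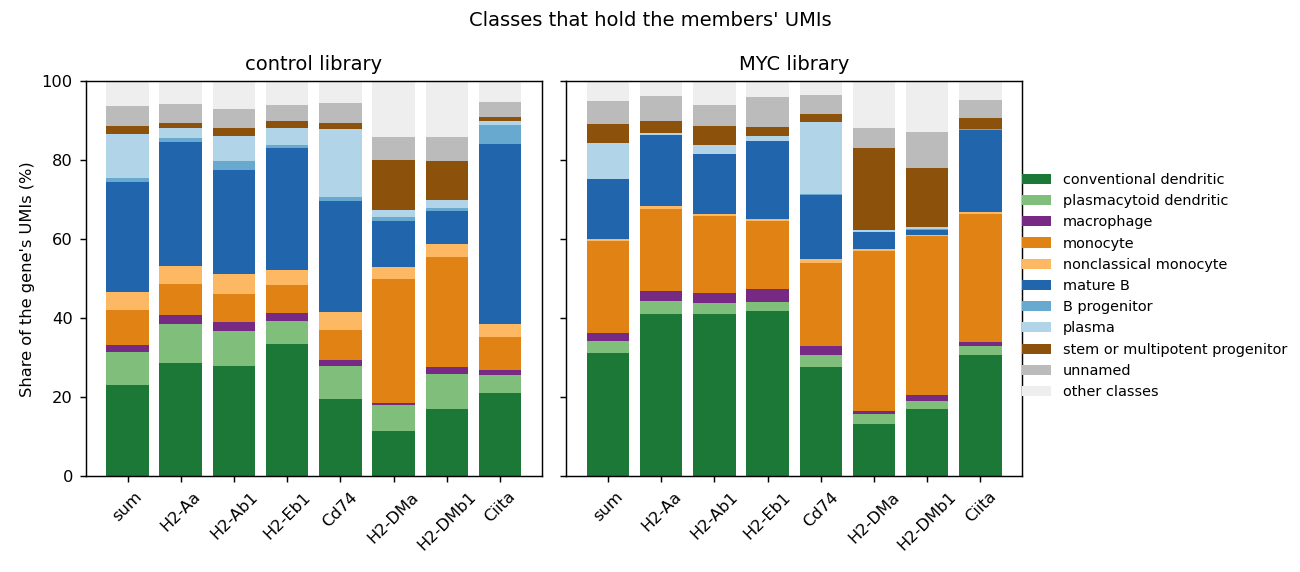
Share of each gene's UMIs (percent of all its UMIs in kept cells) held by each class, control library left and MYC library right; the first bar of each panel is the sum of the 7 genes. Mature B-like cells hold 27.8% of the sum in the control library and 15.04% in the MYC library, and monocyte-like cells hold 8.94% and 23.1%.

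Mature B-like cells made up 3.89% of kept cells in the control library and 1.14% in the MYC library, B progenitor-like cells 2.76% and 0.136%, and monocyte-like cells 6.82% and 10.7%. With the MYC library's class levels weighted by the control library's share of UMIs in each class, the summed level was 980 CPM, a log2 ratio of -0.10 against the control library, compared with -0.72 unweighted. Ciita remained at -0.52 with this weighting, H2-DMa at 0.22 and H2-DMb1 at 0.41. With the control library's class levels weighted by the MYC library's shares, the log2 ratio was -0.32 for the sum, -0.55 for Ciita, 0.04 for H2-DMa and 0.39 for H2-DMb1. The weightings were chosen after the levels were seen. Without the B lineage the unweighted summed level was 698 and 496 (-0.49).

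Conventional dendritic-like cells had 15082 CPM in sum in the control library and 13387 in the MYC library, which is a log2 ratio of -0.17 (interval -0.20 to -0.15). None of the 7 members was called, where 5.33% of 6600 genes were called lower and 4.06% higher; the median log2 ratio was -0.15 for the members and -0.03 for all genes. The direction of the sum changed sign under 5 of 11 alternatives. The class holds cluster 30, led by Cd209a and Clec10a, markers of type 2 conventional dendritic cells, and cluster 36, led by Clec9a and Flt3, known from type 1 cells and dendritic progenitors. Their makeup differed: 105 of 184 control cells and 42 of 129 MYC cells belonged to cluster 30.

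Within each cluster the picture was different from the pooled class. Cluster 30 had the highest class II level of any cluster shown here, 28946 CPM in the control library (interval 28597 to 29298) and 31002 in the MYC library (30439 to 31574), for a log2 ratio of 0.10. No member was called there, where 8.36% of 2966 genes were called lower and 5.02% higher. Cluster 36 had 3171 (3064 to 3280) in the control library and 7636 (7476 to 7798) in the MYC library, which is a log2 ratio of 1.27 (1.21 to 1.33). In cluster 36, 5 of the 7 members were called higher, where 4.25% of 5130 genes were called higher and 4.11% lower and the median of all genes was 0.00. H2-Ab1 was at 495 and 1499 (3.03-fold), H2-Eb1 at 350 and 890 (2.54-fold), H2-DMb1 at 103 and 263 (2.55-fold), H2-Aa at 651 and 1521 (2.34-fold) and Cd74 at 1289 and 2932 (2.27-fold). H2-DMa (1.91-fold) and Ciita (1.75-fold) did not reach the 2-fold limit.

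Cells of cluster 36 differed among themselves. With 2000 UMIs per cell, the median cell held 1 class II UMI in the control library and 3 in the MYC library, and the 90th percentile was 28 and 49.5. At least 20 class II UMIs were found in 11 of 79 control cells (13.9%) and 21 of 86 MYC cells (24.4%). The richest cell held 457 of the 3342 class II UMIs in the control library and 793 of 8698 in the MYC library. The plasmacytoid dendritic markers, of which 8 of 9 had UMIs in cluster 36, summed there to 2449 and 2183 CPM, above the 293 and 312 of cluster 30; their part in the result was not tested.

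**Figure D4:**
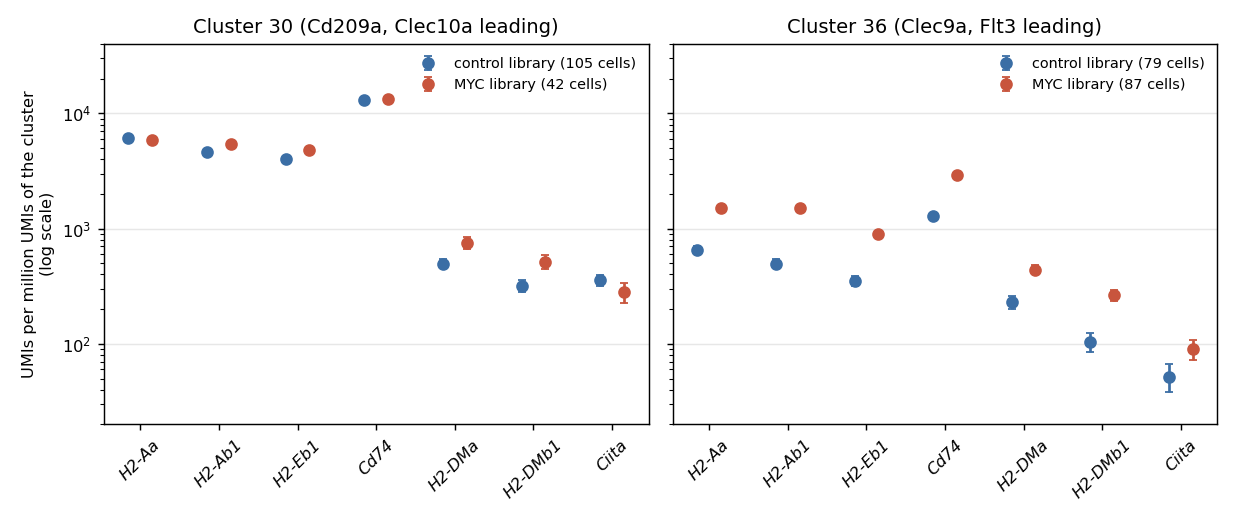
Level of each of the 7 genes in CPM (log axis) in the clusters of the conventional dendritic-like class, control and MYC libraries, with 95% exact Poisson intervals. In cluster 36 the MYC points of all 7 genes lie above the control points, and in cluster 30 H2-DMa and H2-DMb1 lie above and Ciita below.

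H2-DMa and H2-DMb1 were higher in the MYC library in the conventional dendritic-like class as a whole, at 353 and 517 CPM (0.55, interval 0.40 to 0.70) and at 203 and 326 (0.68, 0.49 to 0.88), and in each of its clusters. Both directions held under all 11 alternatives. Ciita was lower over the class, at 193 and 136 (-0.50, -0.75 to -0.25), and changed sign under 2 of them. Plasmacytoid dendritic-like cells, with 43 cells in the MYC library, had 217 and 418 for H2-DMa (0.94, 0.66 to 1.22); the sum of the 7 was at 5909 and 5332 there (-0.15), and no member was called, where 7.17% of 4883 genes were called lower and 6.84% higher.

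Monocyte-like cells had 881 and 812 CPM in sum (-0.12, interval -0.15 to -0.08), with no member called where 4.76% of 10571 genes were called lower and 2.05% higher. The median was -0.08 for the members and -0.19 for all genes, and the sum changed sign under 4 of 13 alternatives. Different clusters held most of this class in the libraries: clusters 23 and 29 held 474 and 159 of 1016 control cells, and clusters 37 and 34 held 608 and 372 of 1344 MYC cells. Within single clusters some members were called, in both directions and on few cells. In cluster 35 (89 and 93 cells) H2-Ab1, at 9.57 and 30.1 CPM, and Cd74, at 44.4 and 136, were called higher, where 1.97% of 5624 genes were called higher and 4.61% lower. There 1 MYC cell held 62 of the 177 Cd74 UMIs and 18 of the 39 H2-Ab1 UMIs were in 1 cell, and the thinned share of cells with a class II UMI was 42.0% in the control library and 38.7% in the MYC library. In cluster 34 (58 and 372 cells) H2-Aa (67.8 and 30.2), H2-Ab1 (52.3 and 24.3) and H2-Eb1 (58.7 and 23.5) were called lower, where 4.24% of 8269 genes were called lower and 2.42% higher. In the control library 69 of the 74 H2-Aa UMIs, 52 of the 57 H2-Ab1 UMIs and 60 of the 64 H2-Eb1 UMIs of cluster 34 came from 1 cell each, and the thinned shares with a class II UMI were 33.3% and 31.2%. Over the class H2-DMb1 was the member whose direction held under all 13 alternatives, at 49.96 and 63.1 (0.34, 0.20 to 0.48). Most monocyte-like cells had few class II UMIs: with 2000 UMIs a cell, the median was 0 in both libraries, and 24 of 993 control cells (2.4%) and 35 of 1335 MYC cells (2.6%) had at least 20.

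Nonclassical monocyte-like cells, the patrolling monocytes marked by Ace, Adgre4, Eno3 and Treml4, had 4920 CPM in sum in the control library (interval 4792 to 5050, 188 cells) and 1075 in the MYC library (981 to 1177, 66 cells), for a log2 ratio of -2.19. All 7 members were called lower, where 6.08% of 3816 genes were called lower and 3.22% higher. The median of the members was -2.40 and that of all genes -0.07. The direction of the sum held under all 13 alternatives. H2-Ab1 was at 756 and 123 (-2.62), H2-Aa at 838 and 159 (-2.40), Cd74 at 2660 and 650 (-2.03) and H2-DMa at 152 and 40.9 (-1.89). Ciita had 59 UMIs in the control library and 3 in the MYC library, 51.4 and 6.82 CPM (log2 ratio -2.91, interval -5.23 to -1.30). H2-Eb1 and H2-DMb1 changed sign under 2 of 13 alternatives each.

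The control cells of this class were not uniform. With cells thinned to 2000 UMIs, the median class II count was 2 in the control library and 0 in the MYC library, and 22 of 177 control cells and 1 of 63 MYC cells had at least 20. Clustering at resolution 2 divided the class into cells led by Tppp3 and Ace, of which 68 were in the control library with 8555 CPM in sum, and cells led by Ace and S1pr5, with 1698 in the control library (1595 to 1805, 118 cells) and 434 in the MYC library (373 to 503, 63 cells). The 68 control cells held 4599 of the 5646 class II UMIs of the class in their library, and at this resolution their cluster, of 233 and 5 cells in all, took the name monocyte. In the MYC library 1 cell held 213 of the 473 class II UMIs, and the 63 cells led by Ace and S1pr5 held 179. When each library was clustered on its own, the log2 ratio of the class was -0.58. Mature B markers summed to 87 and 98 CPM in these cells, with overlapping intervals, against 5562 and 4667 in mature B-like cells.

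Macrophage-like cells had 10052 and 3077 CPM in sum (-1.71, interval -1.80 to -1.61), and H2-Aa, H2-Ab1, H2-Eb1 and Cd74 were called lower among the 6 members with enough UMIs, where 15.9% of 1707 genes were called lower and 13.2% higher. This ratio moved with the clusters. Cluster 33, led by Cd5l, Mertk and Spic, genes of resident macrophages, had 10626 (10191 to 11075, 48 cells) in the control library and 9591 (9031 to 10177, 29 cells) in the MYC library, and no member was called there, where 9.29% of 732 genes were called lower and 13% higher. Cluster 27, led by C1q genes, had 12 control cells at 2980 and 197 MYC cells at 983, with a median depth of 1073 and 1337 UMIs. In cluster 27 H2-Aa, H2-Ab1 and Cd74 were called lower, 3 of 4 members read, where 9.23% of 715 genes were called lower and 11.5% higher, but the control side holds 13, 8 and 21 UMIs of these genes. The class was therefore mostly cluster 33 in the control library and mostly cluster 27 in the MYC library. Over the 13 alternatives its log2 ratio ran from -3.71 to -0.10.

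An unnamed cluster of C1q-positive cells was also mostly of the MYC library. Cluster 26, led by Fcrl5, Negr1 and C1qb, had 378 MYC cells at 761 CPM in sum (728 to 795) and 15 control cells at 8321 (7731 to 8945). Cluster 31, unnamed and led by interferon-induced genes such as Cxcl10 and Ifit2, had 119 control cells at 2335 and 5 MYC cells at 1139. A cluster mostly of 1 library may reflect that library rather than a cell type, and with so few cells on the other side no call is made on either. The calls of cluster 27 above have the same limit, with 12 control cells.

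Mature B-like cells had a higher class II level in the MYC library, 13834 against 11433 CPM in sum (log2 ratio 0.27, interval 0.24 to 0.31), a direction that held under all 13 alternatives. No member was called, where 8.21% of 6544 genes were called lower and 2.31% higher; the median of the members was 0.21 and that of all genes -0.26. H2-DMa was at 228 and 367 (0.69, 0.48 to 0.89), H2-Eb1 at 1193 and 1853 (0.64, 0.54 to 0.73) and H2-Ab1 at 1436 and 1933 (0.43, 0.34 to 0.52). Ciita went the other way, at 263 and 198 (-0.41, -0.68 to -0.15). With 2000 UMIs a cell, the median cell held 24 class II UMIs in the control library and 28 in the MYC library, and the 10th percentile was 8.9 and 19. B progenitor-like cells had 417 CPM in sum in the control library; the MYC library held 17 of them, too few to compare.

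In plasma-like cells the members parted. H2-Aa was at 102 and 34.5 CPM (-1.56, interval -1.96 to -1.18) and H2-Ab1 at 222 and 110 (-1.01, -1.23 to -0.79), and both were called lower, where 5.95% of 6356 genes were called lower and 6.92% higher. H2-Eb1 was at 99.9 and 52.4 (-0.93). Cd74 was at 2313 and 3048 (0.40, 0.35 to 0.44) and changed sign under 1 of 13 alternatives, the denominator without the 20 most abundant genes. The lower values of the 3 chains held their sign under all 13.

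The summed level of stem or multipotent progenitor-like cells was 313 and 275 CPM, and 1 control cell held 365 of the 2758 class II UMIs. H2-DMa was at 86.7 and 107 (0.30, interval 0.17 to 0.43) and H2-DMb1 at 26.0 and 38.3 (0.56, 0.32 to 0.79), and both kept their sign under all 11 alternatives. Cd74 was at 106 and 52.9 (-0.999, -1.15 to -0.85) and changed sign under 4. No member was called, where 3.57% of 10593 genes were called lower and 0.944% higher. Basophil or mast-like cells had 29.1 and 44.4 CPM of H2-Ab1 but 10.5 and 4.93 of H2-Aa: 0.360 and 0.111 H2-Aa UMIs per H2-Ab1 UMI, below the 1.08 and 1.14 of mature neutrophil-like cells. Cd74 in basophil or mast-like cells, at 58.9 and 14.1 CPM, was called lower in the MYC library. T or NK-like cells had 370 and 114 CPM in sum, and 471 of the 1053 control UMIs came from 1 cell.

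Mature neutrophil-like cells, the background class, had 134 and 54.1 CPM in sum (-1.31), and H2-Aa, H2-Ab1 and Cd74 were called lower in the MYC library, where 8.21% of 8909 genes were called lower and 2.74% higher. H2-DMa was at 5.50 and 6.12 in the same cells. Mature B markers were also lower there, summing to 48 and 11 CPM. Other sparse classes, such as immature neutrophil-like (64.0 and 35.2) and erythroid-like cells (111 and 61.5), were also lower in the MYC library. Granulocyte progenitor-like cells went the other way, at 83.6 (78.1 to 89.3) and 104 (97.3 to 112) CPM in sum. The part of the background in these classes was not tested.

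**Figure D5:**
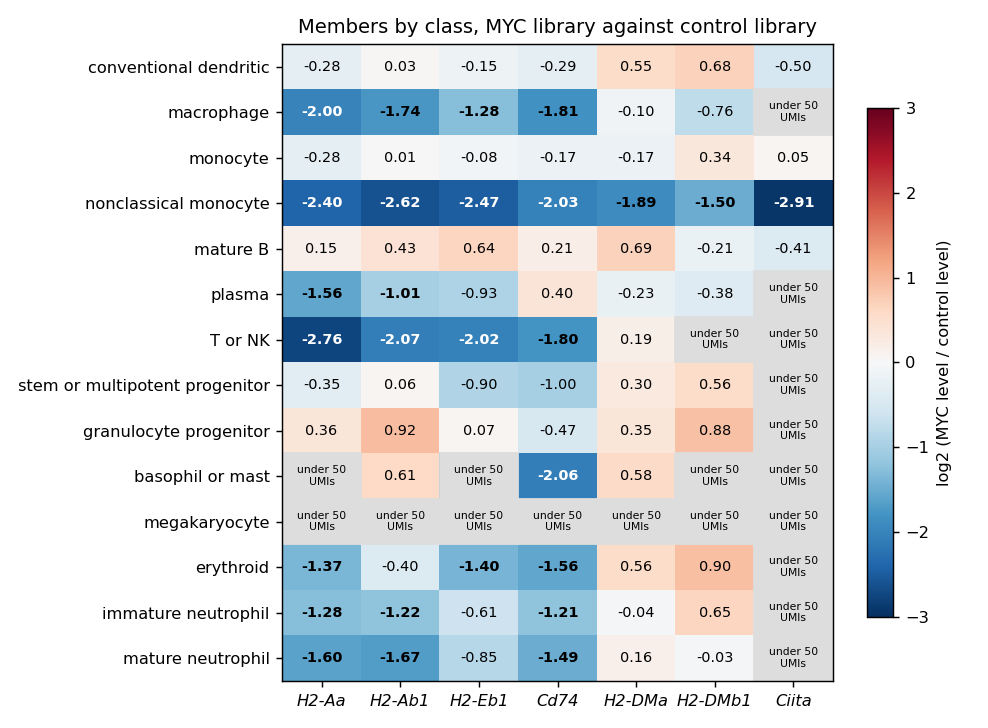
Log2 ratio of the level in the MYC library to that in the control library for each gene (columns) in 14 classes with at least 50 cells in both libraries (rows); bold marks genes that met the 2-fold call, and grey cells had fewer than 50 UMIs over both libraries. Nonclassical monocyte-like cells are lower in all 7 genes, while H2-DMa and H2-DMb1 are above 0 in conventional dendritic-like, stem or multipotent progenitor-like, granulocyte progenitor-like and erythroid-like cells.

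The 40 other genes of the pathway list, fixed by role, were read with the same rule. In conventional dendritic-like cells 31 had enough UMIs, 3 were called lower and 2 higher, where 5.33% and 4.06% of all genes were, and their median log2 ratio was -0.45 against -0.03 over all genes. The cathepsins Ctsb (499 and 244 CPM) and Ctsd (137 and 64.2), lysosomal proteases, were among those called lower. In cluster 30 alone the median of the list was -0.49 against -0.10 over all genes, and in cluster 36 it was 0.24 against 0.00, with neither cathepsin called there. Over the class, Mif, a ligand of Cd74 (116 and 248), and Rfxap, a subunit of RFX (14.3 and 33.8), were higher. In monocyte-like cells 36 were read, with a median of -0.51 against -0.19 over all genes. The class lies in different clusters in the libraries, and within clusters 25, 34, 35 and 32 the median of the list was 0.27, 0.14, -0.14 and -0.20, against -0.17, -0.13, -0.13 and -0.10 over all genes. In the class as a whole 5 were called lower and 2 higher, where 4.76% and 2.05% of all genes were. Among others, Irf4 (10.6 and 4.88), Cxcr2 (44.5 and 19.4), H2-DMb2 (5.94 and 2.33) and H2-Oa (4.01 and 1.95) were called lower over the class, but in none of these clusters alone, and Ctsl (32.4 and 72.7) and Mif (105 and 223) higher.

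In mature B-like cells 35 genes of the list were read. Creb1, which binds the X box (112 and 46.8), Irf4 (54.1 and 17.0) and Bcl6 (48.3 and 17.0) were called lower and none higher, 3 of 35 where 8.21% of all genes were called lower. In macrophage-like cells, with the differing clusters given above, 6 of 17 were called lower, where 15.9% of all genes were, and included Ctsb, Ctsd, Lgmn, Irf1 and Irf8. In nonclassical monocyte-like cells 2 of 20 were called lower, where 6.08% of all genes were, and included Irf1 (85.4 and 31.8).

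Among 4015 genes of at least 100 CPM in some class, those most like the members in pattern over the 30 points were Cd180 (r = 0.902), Ly86 (0.878), Vav2 (0.876), Scpep1 (0.860), Filip1l (0.859), Irf8 (0.855), Cd2ap (0.846), Plekho1 (0.843), Ctss (0.839) and Pld4 (0.831). Cd180 and Ly86 encode a surface receptor and a secreted partner of such receptors in B cells and phagocytes, Irf8 a transcription factor of dendritic cells, and Ctss the protease that trims the invariant chain. The closest of them, Cd180, was below the value of every surface chain, of Cd74 (0.912) and, narrowly, of Ciita (0.906). Cd180, Ly86 and Vav2 were above both H2-DMa (0.861) and H2-DMb1 (0.851). Each member was set against the mean of the other members, and each outside gene against the mean of all members. The values of members and outside genes are therefore not strictly the same measure.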

How the data were processed

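The matrices hold UMI counts per gene and cell, as deposited by the authors, with Cell Ranger 6.0.0 named per the file headers; GRCm38 (mm10), Cell Ranger 6.0 and Seurat are named per the submitters' processing notes. The control matrix has 17073 barcodes with 131884603 UMIs, and the MYC matrix 14496 barcodes with 110012176. Cells with at least 500 UMIs, 200 genes and at most 10% mitochondrial UMIs were kept. Scrublet in scanpy 1.11.5 removed doublets above a score of 0.204, its limit in the control library, since its own limit in the MYC library, 0.650, marked 0 cells: 558 (3.61%) and 356 (2.76%) were removed.

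Cells were normalized to 10000 UMIs, and 2000 variable genes, 30 components, 15 neighbours and Leiden resolution 1 gave clusters; phagocyte clusters were clustered again. A cluster was named from its markers, with at least 3 detected and at least as many of its own as of another class among its 10 leading genes. The second clustering, the doublet limit and this rule were set after seeing the data, and the members and lists were chosen with earlier results of these data known. Named genes were the 7 members, the called pathway genes and the 10 genes most like the members by correlation of log2(CPM + 1). Levels have exact Poisson intervals, ratios exact binomial ones, and shares of cells Clopper-Pearson ones; scripts were tested on simulated counts. Groups of 1 library allow no test. A gene of the pathway list is not reported here.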

Additional observations from a re-analysis of the deposited data

How the results depend on the processing

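The values here are log2 ratios of MYC to control for the sum of the 7 genes, with the cell filter, doublets, clusters or scaling changed one at a time. Over all kept cells (-0.72) the ratio was -0.75 with doublets kept, -0.77 with under 5% mitochondrial UMIs, -0.51 with median-of-ratios scaling, -0.81 with the 20 most abundant genes out of the denominator, -0.93 as a mean over cells, -0.65 with the mature neutrophil level subtracted and -0.68 at a doublet limit of 0.15. In conventional dendritic-like cells (-0.17) the first 5 of these gave 0.078, 0.39, -0.14, -0.41 and -0.32, and the doublet limit gave 0.021. They gave 0.86 at Leiden resolution 0.5, 0.77 at resolution 2 and -0.11 when cells were classified by markers alone. At both resolutions the class was only a cluster with Clec9a and Flt3 among its leading genes. It held 84 control and 101 MYC cells, and 33 and 69, in that order. No value could be had for them when each library was clustered on its own or when phagocyte clusters were not clustered again.

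Monocyte-like cells (-0.12) gave 0.044 with doublets kept, -0.058 with under 5% mitochondrial UMIs, -0.47 with at least 1000 UMIs and 500 genes, -0.62 and -0.66 at resolutions 0.5 and 2, -0.82 with each library clustered on its own, -0.69 by markers alone, 0.068 with median-of-ratios scaling, -0.22 without the 20 most abundant genes, -0.078 as a mean over cells, 0.020 after subtraction, -0.43 without the second clustering and 0.089 at the doublet limit of 0.15. Mature B-like cells (0.27) gave 0.32 with doublets kept, 0.38 with under 5% mitochondrial UMIs, 0.34 with at least 1000 UMIs and 500 genes, 0.31 at resolution 0.5, 0.50 with libraries clustered on their own, 0.39 by markers alone, 0.53 with median-of-ratios scaling, 0.094 without the 20 most abundant genes and 0.24 at the doublet limit of 0.15.

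Called ratios of single genes changed sign for H2-Eb1 in macrophage-like cells with doublets kept (0.27), for H2-Eb1 in nonclassical monocyte-like cells with doublets kept (0.68) or libraries clustered on their own (0.60), for H2-DMb1 in the latter cells under the same settings (0.41 and 0.060), and for H2-Eb1 in erythroid-like cells as a mean over cells (0.63). The causes were not tested. Of 1621 values under alternatives for 133 results, 1110 stayed within the interval, 505 moved beyond it, in some cases across 0 as above, and these 6 called ratios changed sign. Those that stayed include settings that cannot change a result, such as another clustering for the sum over all kept cells. No paired analysis was possible because each group is 1 library. Depth limits what can be said of macrophage-like cells, which had medians of 1579 and 1362 UMIs, and 23 of 60 and 59 of 226 of them reached the 2000 UMIs needed for thinning.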
